A study of Mus musculus with 8 samples.

Results

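The 10 genes described here make or control glucose in the newborn liver. They are Gpt, Gpt2, Pcx, Pck1, Pck2, Fbp1, Slc37a4, G6pc, Ppargc1a and Foxo1, and they were chosen by gene name on the array. They had 13 of the 55681 non-control probes, and all 13 were well above background on all 8 arrays. All 10 genes were therefore among the 23526 genes tested, and none was lost to the filter on dim probes. Liver RNA came from pups that lacked the miR-379/miR-410 cluster of microRNAs through a deletion inherited from the mother (KO, 4 samples). It was compared with RNA from wild-type littermates (WT, 4 samples), all C57BL/6J. The series design calls the 4 samples of each group biological replicates. Pups of both groups were taken by caesarean at E19.5, kept warm and killed 4 h later, and a piece of the large lobe was used. Each sample was hybridised to 1 single-colour array. Whether replicate 4 of each group is a separate pup could not be shown, as described below. The whole animal carries the deletion, so these values do not separate an effect within hepatocytes from one that reaches the liver from other tissues. The labels used here do not give the sex of the pups.

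Before birth the placenta supplies glucose. At birth insulin falls and glucagon rises, and the liver begins to make glucose from alanine, lactate and glycerol. Glucagon acts through cAMP, the factor CREB and the coactivator PGC-1alpha (Ppargc1a), while insulin restrains the forkhead factor FOXO1. In rodents the cytosolic enzyme made by Pck1 appears in the liver around birth, and its gene is a classical target of cAMP. The comparison of KO with WT asks whether the RNAs of this pathway differ after birth when the microRNA cluster is missing.

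The deleted cluster is named after the microRNAs at its ends. Both lie on chromosome 12, and 1 mature strand of each is shown from RefSeq (GRCm38.p6, plus strand) to identify the genotype, with the seed, bases 2 to 8, in capitals. The arrays did not measure these microRNAs.
miR-379-5p, chr12:109709065-109709085: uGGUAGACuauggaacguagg
miR-410-3p, chr12:109743764-109743784: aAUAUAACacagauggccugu

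The sequence before the gene start is shown for 3 members, because Pck1 had the largest difference and because G6pc and Ppargc1a followed each other across the arrays, as described below. Each sequence is the 250 bases before the start of the gene in RefSeq (GRCm38.p6), read in the direction of transcription. Capitals mark exact matches to any of 4 motifs searched on both strands.
Pck1, chr2:173152823-173153072, plus strand: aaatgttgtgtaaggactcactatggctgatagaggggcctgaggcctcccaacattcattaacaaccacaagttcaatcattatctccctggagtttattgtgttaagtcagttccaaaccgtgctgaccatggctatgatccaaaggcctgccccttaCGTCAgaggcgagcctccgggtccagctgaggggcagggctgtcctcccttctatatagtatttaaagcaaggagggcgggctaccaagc
G6pc, chr11:101367466-101367715, plus strand: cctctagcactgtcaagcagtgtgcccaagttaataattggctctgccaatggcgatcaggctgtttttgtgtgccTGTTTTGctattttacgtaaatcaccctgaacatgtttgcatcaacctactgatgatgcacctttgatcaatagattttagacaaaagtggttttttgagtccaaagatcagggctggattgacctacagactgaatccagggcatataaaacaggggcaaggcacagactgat
Ppargc1a, chr5:51567726-51567975, minus strand: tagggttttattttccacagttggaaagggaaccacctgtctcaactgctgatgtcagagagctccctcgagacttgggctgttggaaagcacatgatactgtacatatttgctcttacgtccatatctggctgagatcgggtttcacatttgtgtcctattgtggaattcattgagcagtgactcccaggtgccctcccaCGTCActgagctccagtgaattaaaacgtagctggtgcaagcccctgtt

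The motifs were TGACG, a partial cAMP response element, GTAAACA, a core bound by forkhead factors, CAAAACA, the core of the insulin response sequence, and AAGGTCA, the monomer site of orphan nuclear receptors. No matches of different motifs overlapped in a member window. The search covered 250 bases before and 50 after each start, and RefSeq gave such windows for 9 of the 10 members (12 windows). The partial cAMP element lay at -90 to -86 in Pck1 and at -49 to -45 in Ppargc1a, in both on the opposite strand, and it was also found for Slc37a4. Of all 32851 promoter windows, 20.8% hold it. The insulin response core lay at -174 to -168 in G6pc and at -159 to -153 in Pck2, both on the opposite strand, and 6.28% of all windows hold it. The forkhead core GTAAACA (3.65% of all windows) and the orphan receptor site (4.72%) had no match in any member window. A window without GTAAACA may still hold another sequence that forkhead factors bind. These matches describe the letters only.

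Levels below are log2 signals relative to the 75th percentile of the same array, so that 0 is that percentile. Differences are KO minus WT on the log2 scale with their standard error (SE), and adjusted p-values come from limma with Benjamini-Hochberg adjustment over all 23526 genes. A gene is called at an adjusted p under 0.05. Levels of different genes come from different probes and are not set against each other.

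Several arrays stood apart and bear on every value that follows. Xist, the RNA of the inactive X chromosome, was well above background in KO 1, KO 2 and KO 4. The Y-linked gene Ddx3y was well above background in KO 3, KO 4, WT 1, WT 2 and WT 4, so KO 4 carried both and WT 3 neither. Each array was also fitted as a weighted sum of the other arrays of its group. The fits of KO 4 and WT 4 left the smallest residual SD of their groups (0.20 and 0.26 log2). Their largest weights were 0.59 for KO 3 in KO 4 and 0.58 for WT 3 in WT 4. KO 3 and WT 3 came next, at 0.25 and 0.28, with weights of 0.95 for KO 4 and 0.66 for WT 4. In WT this measure thus hardly set replicate 4 apart. Ddx3y in WT 4 lay between the other WT arrays, at 1.39, against 2.21 in WT 1 and WT 2 and -7.67 in WT 3. In KO 4 Ddx3y stood at 1.81, against 2.30 in KO 3. Xist stood at -0.14 in KO 4, against 1.72 in KO 1 and 1.52 in KO 2. Whether each replicate 4 is an independent animal could not be shown from these files, so the members' differences are also given from the 6 arrays without them (3 per group). All arrays lay on 1 slide. KO filled 1 of its columns and WT the other, so an effect of the column and one of the genotype cannot be told apart. Mirg, a noncoding RNA of the deleted region, checked the labels. Its levels were -0.20, -0.31, -0.91 and -0.73 in KO 1 to 4, against 2.11, 2.24, 2.15 and 2.14 in WT 1 to 4. All KO arrays were far below all WT arrays, but Mirg was still well above background on all 4 KO arrays. Alb, which hepatocytes express at high level, stood at 10.08 to 10.17 in KO and at 9.98 to 10.32 in WT.

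No member was called in either direction. Pck1 and Pcx, which act in the conversion of pyruvate to phosphoenolpyruvate, were the 2 members whose KO arrays all lay below all WT arrays. Pck2, which catalyses the same reaction as Pck1 in mitochondria, differed by -0.03. The alanine aminotransferases Gpt and Gpt2 also had lower means in KO, while Fbp1, Slc37a4 and G6pc, which complete and release glucose, differed by 0.11 log2 or less. Among all genes tested, 0.179% were called lower and 0.0383% higher with 8 arrays, and 0.0255% and 0% with 6. KO lay wholly below WT for 4.33% of all genes and wholly above for 4.72% with 8 arrays. With 6 arrays these shares were 6.15% and 7.38%, and the same 2 members, Pck1 and Pcx, lay wholly below. The mean was lower in KO for 8 of the 10 members and higher for 2. The median difference of the 10 was -0.10, against 0.03 over all genes tested, and with 6 arrays -0.11 against 0.03. At an unadjusted p under 0.05, limma gave 3 members (Pck1, Pcx and Gpt) and 3134 of all genes. With 6 arrays it gave 1, Pck1, and 1724 of all genes.

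**Figure D1:**
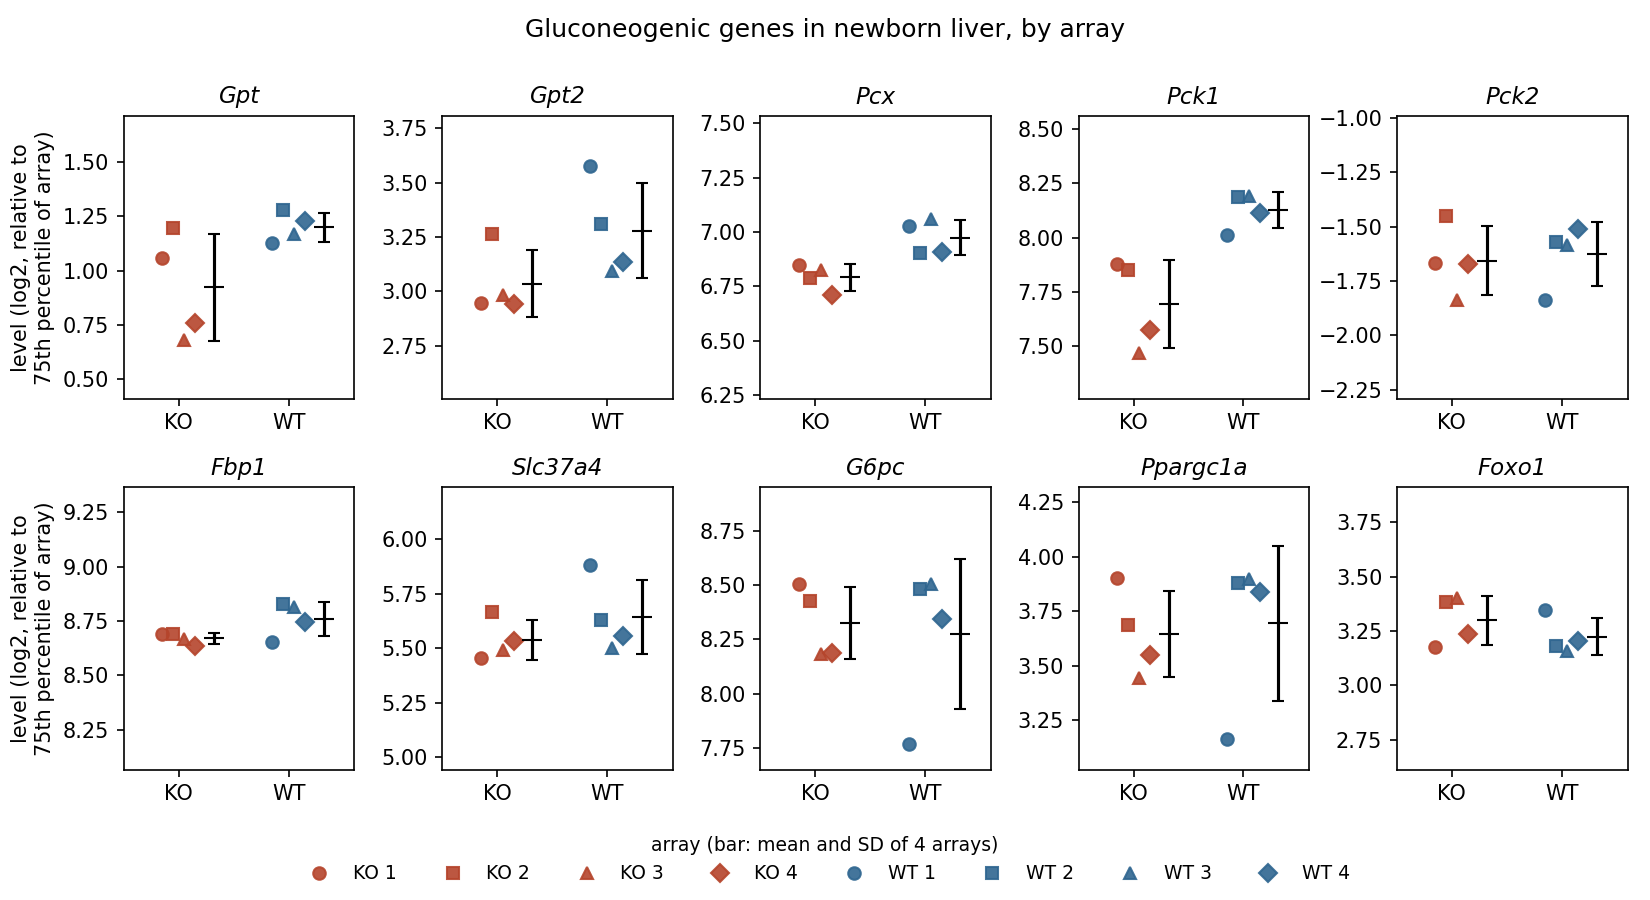
Level of each of the 10 genes on each array (log2, relative to the array's 75th percentile), KO left and WT right, with 1 symbol per replicate number and a bar for the mean and SD of 4 arrays. All panels span the same log2 range. The KO points of Pck1 and Pcx lie below all WT points, and WT 1 lies far below the other WT arrays in G6pc and Ppargc1a.

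Pck1 encodes the cytosolic phosphoenolpyruvate carboxykinase, which commits carbon to gluconeogenesis. Its probe lies at chr2:172984307-172984366 (mm9, the build of the array files). The levels were 7.88, 7.85, 7.47 and 7.58 in KO 1 to 4, against 8.01, 8.18, 8.19 and 8.11 in WT 1 to 4. All KO arrays were below all WT arrays, and within KO the arrays fell into a higher pair (1 and 2) and a lower pair (3 and 4). On the linear scale the processed signals were 137700, 141900, 104300 and 105900 in KO, against 166100, 148000, 156200 and 148200 in WT. The groups averaged 7.69 ± 0.20 in KO and 8.12 ± 0.08 in WT (SD, n = 4 arrays each). The difference was -0.43 (SE 0.11, 95% interval -0.68 to -0.19), which is 0.742-fold with an interval of 0.625 to 0.880, and it did not pass (limma adjusted p = 0.156). With 6 arrays the difference was -0.40 (SE 0.14, limma adjusted p = 0.635).

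The size of the Pck1 difference rested on KO 3 and KO 4. Without them it was -0.26 (limma adjusted p = 0.610), and without KO 3 and both replicates numbered 4 it was also -0.26, a setting chosen after seeing the data. KO 3 and KO 4 were the KO arrays with Ddx3y above background, and KO 4 was close to a weighted sum in which KO 3 had the largest weight. With Ddx3y as a covariate the difference was -0.49 (limma adjusted p = 0.0804), and with Xist it was -0.71 (limma adjusted p = 0.145). Xist was low on all WT arrays and, among KO arrays, only on KO 3, the array with the lowest Pck1. The fit with Xist therefore separates genotype from Xist mainly through KO 3. With normexp background correction and quantile normalization together Pck1 passed, at -0.49 (limma adjusted p = 0.0493). Over all settings tried its difference was below 0.

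Pcx encodes pyruvate carboxylase, the mitochondrial enzyme that makes oxaloacetate from pyruvate and so feeds Pck1. Its probe lies at chr19:4621610-4621669 (mm9). The levels were 6.85, 6.79, 6.82 and 6.71 in KO 1 to 4, against 7.03, 6.90, 7.06 and 6.91 in WT 1 to 4. The groups did not overlap, and the closest arrays were KO 1 and WT 2. The difference was -0.18 (SE 0.07, 95% interval -0.34 to -0.02, limma adjusted p = 0.325), or 0.881-fold. With 6 arrays it was -0.18 (SE 0.09, limma adjusted p = 0.732). Unlike Pck1, Pcx did not divide the KO arrays into pairs, and without KO 3 and KO 4 its difference was -0.16.

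Gpt and Gpt2 encode the cytosolic and the mitochondrial alanine aminotransferase, which convert alanine to pyruvate. The Gpt probe spans chr15:76529767-76529897 (mm9), a stretch longer than the probe. Gpt levels were 1.06, 1.20, 0.68 and 0.76 in KO 1 to 4, against 1.13, 1.28, 1.17 and 1.23 in WT 1 to 4. KO 3 and KO 4 were low, while KO 2 lay inside the WT range, so the groups overlapped. The Gpt difference was -0.28 (SE 0.12, 95% interval -0.55 to -0.0013, limma adjusted p = 0.374), and it was -0.07 without KO 3 and KO 4. Gpt2 (chr8:88050856-88050915, mm9) had levels of 2.95, 3.26, 2.99 and 2.94 in KO, against 3.58, 3.31, 3.10 and 3.13 in WT. KO 2 was the high array of its group, and WT 1 that of WT. The Gpt2 difference was -0.24 (SE 0.13, 95% interval -0.53 to 0.04, limma adjusted p = 0.437), and without WT 1 it was -0.15. With 6 arrays Gpt differed by -0.21 and Gpt2 by -0.26 (limma adjusted p = 0.759 and 0.741).

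Pck2 encodes the mitochondrial phosphoenolpyruvate carboxykinase. Its probe (chr14:56168027-56168086, mm9) was printed in 10 spots on each array, which were averaged. The levels were -1.67, -1.45, -1.84 and -1.67 in KO 1 to 4, against -1.84, -1.57, -1.58 and -1.51 in WT 1 to 4. The ranges of the groups nearly coincided. The difference was -0.03 (SE 0.11, 95% interval -0.27 to 0.21, limma adjusted p = 0.914), and 0.01 with 6 arrays. The 95% intervals of Pck1 and Pck2 overlap between -0.27 and -0.19, and whether the 2 isoforms differ in their response was not tested.

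Fbp1 encodes fructose-1,6-bisphosphatase, which removes a phosphate that glycolysis put on. Its probe lies at chr13:62966175-62966234 (mm9). The levels were 8.69, 8.69, 8.67 and 8.64 in KO, against 8.65, 8.83, 8.81 and 8.75 in WT 1 to 4. The KO arrays lay close together, and WT 1 fell among them, below the other WT arrays. The difference was -0.09 (SE 0.07, 95% interval -0.24 to 0.06, limma adjusted p = 0.566), and without WT 1 it was -0.13. With 6 arrays it was -0.08 (SE 0.10, limma adjusted p = 0.840).

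The last step, inside the endoplasmic reticulum, needs the transporter Slc37a4, which brings glucose 6-phosphate in, and the catalytic subunit G6pc, which frees glucose. Slc37a4 (chr9:44210987-44211045, mm9) had levels of 5.46, 5.67, 5.49 and 5.53 in KO 1 to 4, against 5.88, 5.63, 5.50 and 5.56 in WT 1 to 4. WT 1 was the highest array, and the KO range overlapped that of WT. The difference was -0.11 (SE 0.10, 95% interval -0.33 to 0.12, limma adjusted p = 0.652), and -0.03 without WT 1. With 6 arrays it was -0.13 (SE 0.13, limma adjusted p = 0.817). A second, dim Slc37a4 probe (chr9:44205736-44205795, mm9) differed by -0.06 (SE 0.17), and its highest array was also WT 1.

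G6pc (chr11:101238947-101239006, mm9) had levels of 8.50, 8.43, 8.18 and 8.19 in KO 1 to 4, against 7.77, 8.48, 8.51 and 8.35 in WT 1 to 4. KO 1 and KO 2 matched WT 2 to 4, KO 3 and KO 4 were lower, and WT 1 was the lowest of all. The difference was 0.05 (SE 0.17, 95% interval -0.34 to 0.44, limma adjusted p = 0.910), and that interval is 0.791- to 1.36-fold of WT. With 6 arrays it was 0.12, with a wider 95% interval of -0.40 to 0.65 (limma adjusted p = 0.896). Its sign was not stable, at -0.12 without WT 1 (limma adjusted p = 0.627) and -0.0088 without KO 1.

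**Figure D2:**
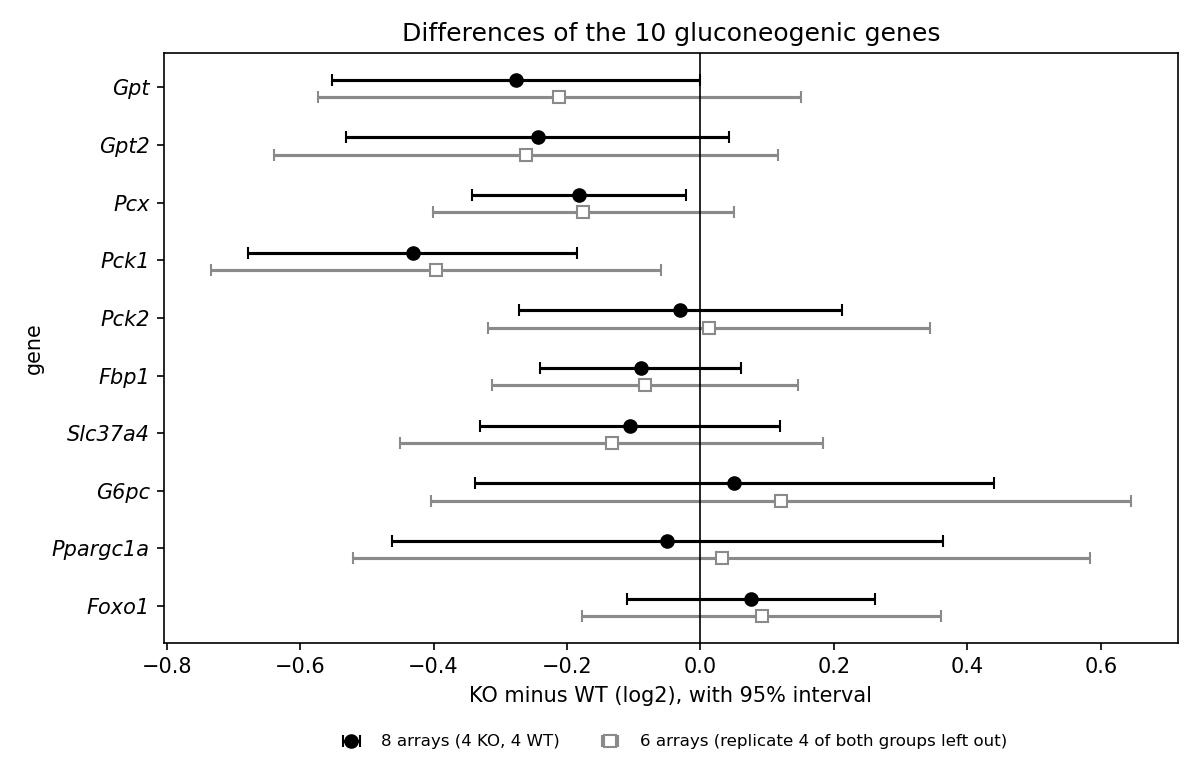
Difference KO minus WT (log2) with its 95% interval for each gene, in pathway order from alanine to glucose and then the regulators, with 8 arrays (filled) and with the 6 arrays that exclude replicate 4 (open). The interval of Pck1 lies below 0 in both, that of Pcx and Gpt only with 8 arrays, and the widest intervals are those of G6pc and Ppargc1a.

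Ppargc1a encodes the coactivator PGC-1alpha, which glucagon induces and which drives gluconeogenic genes. The brighter of its 2 probes (chr5:51848928-51848987, mm9) had levels of 3.90, 3.69, 3.44 and 3.55 in KO 1 to 4, against 3.16, 3.88, 3.90 and 3.84 in WT 1 to 4. As in G6pc, WT 1 was the lowest array, and KO 3 and KO 4 came next. The difference was -0.05 (SE 0.18, 95% interval -0.46 to 0.36, limma adjusted p = 0.919). Without WT 1 it was -0.23, and with 6 arrays it was 0.03 (SE 0.23, limma adjusted p = 0.976). The second probe (chr5:51846926-51846985, mm9) differed by 0.04 (SE 0.19) and again had its lowest level in WT 1, at -0.84, against -0.22 to 0.14 in the other WT arrays.

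Foxo1 encodes the forkhead factor that insulin keeps out of the nucleus, a control on the protein that RNA levels do not show. Its brighter probe (chr3:52150183-52150242, mm9) had levels of 3.18, 3.39, 3.40 and 3.23 in KO 1 to 4, against 3.35, 3.18, 3.16 and 3.21 in WT 1 to 4. WT 1 lay with the 2 higher KO arrays, KO 2 and KO 3, and the groups overlapped. The difference was 0.08 (SE 0.08, 95% interval -0.11 to 0.26, limma adjusted p = 0.695), and 0.09 with 6 arrays (SE 0.11, limma adjusted p = 0.846). It was 0.04 without KO 3, 0.12 without WT 1 and 0.02 with the mean of both probes. The second probe (chr3:52153289-52153348, mm9) differed by -0.04 (SE 0.11). The 2 probes had opposite signs, and both intervals include 0.

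Several members differed more between arrays of 1 genotype than between the genotypes. WT 1 lay outside the range of WT 2 to 4 in 9 of the 10 members. It lay above that range for Gpt2, Slc37a4 and Foxo1 and below it for Gpt, Pck1, Pck2, Fbp1, G6pc and Ppargc1a. Over all genes tested, WT 1 lay above it for 34.2% and below it for 36.1%. Relative to the mean of WT 2 to 4, WT 1 was lower by 0.68 log2 in G6pc and by 0.71 in Ppargc1a, and higher by 0.40 in Gpt2 and by 0.32 in Slc37a4. Each of these shifts exceeded the KO minus WT difference of the same gene. KO 3 and KO 4 both lay below KO 1 and KO 2 in 6 members, namely Gpt, Pck1, Pck2, Fbp1, G6pc and Ppargc1a. Both lay below for 28.3% of all genes and both above for 23.0%, and both lay above in none of the 10 members. Between the means of these pairs Gpt differed by -0.41, Pck1 by -0.34, Ppargc1a by -0.30 and G6pc by -0.28.

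**Figure D3:**
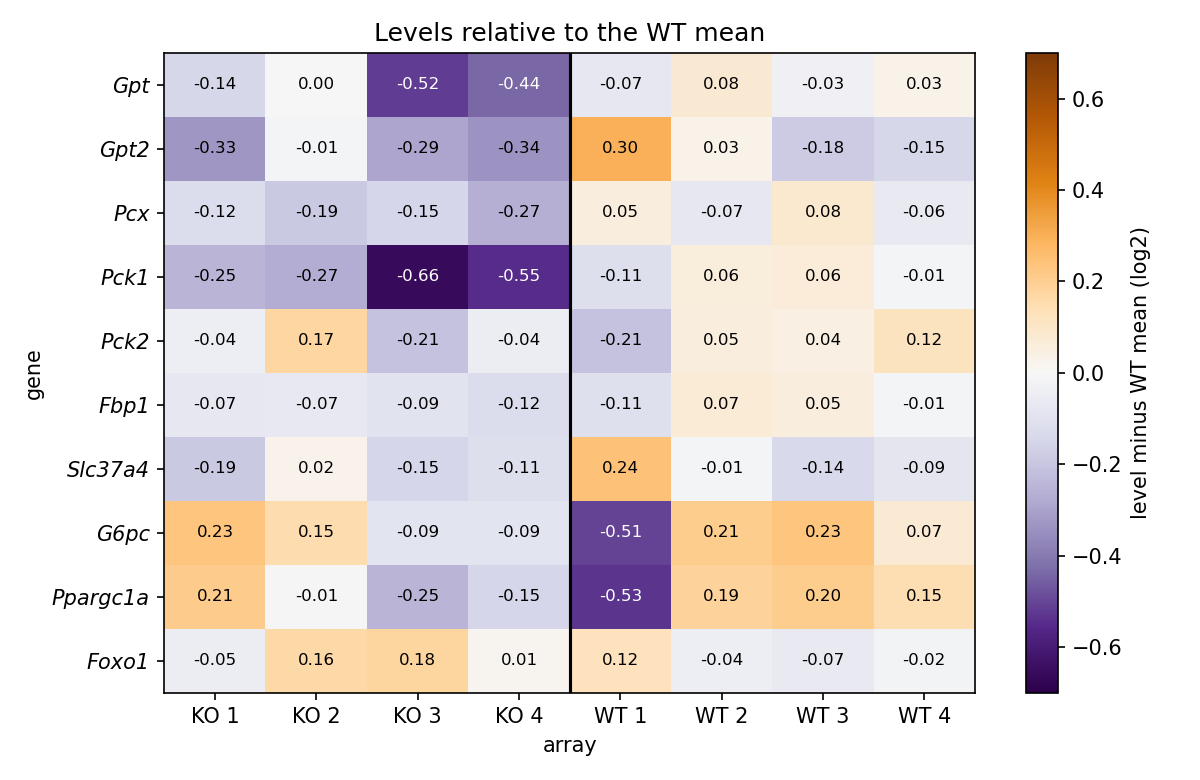
Level of each gene on each array minus the WT mean of that gene (log2), KO arrays left of the line and WT arrays right of it. The dark cells are Pck1 and Gpt in KO 3 and KO 4, and G6pc and Ppargc1a in WT 1.

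G6pc and Ppargc1a had the most similar profiles of any pair of members. With each gene centred on its own mean, their root mean square distance over the 8 arrays was 0.07 log2, while each gene's own spread was 0.24 and 0.25 log2. The largest distance between members was 0.39, between Gpt2 and Ppargc1a. Among all genes with a symbol, the closest profiles to Ppargc1a were those of Nppa (0.06), Ggt1 (0.07) and G6pc (0.07). The closest to G6pc were Sesn2, Bud13 and Ccdc189 (0.06 each). Those closest to Pck1 were Acot12 (0.07), Rai2 (0.07) and Sox18 (0.08), against an own spread of 0.25. These distances describe 8 arrays that include both replicates numbered 4, and they have no test.

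Markers of other cells were set beside these values, as sums of 2 to the power of the level over each list. The 7 hepatocyte markers summed to 4174 to 4329 in KO and 3852 to 4606 in WT, and all were above background on every array. The 5 stellate cell and fibroblast markers summed to 62.2 to 76.1 in KO, against 88.4 to 102 in WT, so the groups did not overlap, as in Pck1 and Pcx. The collagens Col1a1, Col1a2 and Col3a1 made up most of that sum, while Lrat overlapped, at -1.38 to -0.99 in KO and -1.51 to -0.83 in WT. The 6 erythroid markers summed to 414 to 465 in KO and to 233 to 430 in WT, with the low value in WT 1, the array that was low in G6pc and Ppargc1a. The 8 pancreas markers summed to 10.6 to 18.6 in KO and to 28.5, 18.8, 128 and 67.1 in WT 1 to 4. The sums did not overlap, but the closest, in KO 2 and WT 2, came almost wholly from Amy2a5, at 4.15 and 4.19. In Cpa1, Cel and Ctrb1 WT 2 lay below all KO arrays and the groups overlapped. The 5 macrophage markers summed to 141 to 167 in KO and 131 to 188 in WT. Kidney and fat also express Pck1. Of the kidney markers reported here, Slc34a1 was above background on all 8 arrays, Umod on 1, and Kap and Slc12a1 on none. Of 5 fat markers, Cidea was above background on all 8 arrays, Plin1 on 2 KO and 3 WT arrays, Ucp1 on 1, and Adipoq and Lep on none, and the sums of 4.96 to 8.38 in KO and 5.49 to 12.2 in WT came almost wholly from Cidea. The part of the stellate, erythroid and pancreas markers in the members' differences was not tested. Fewer hepatocytes and less RNA per hepatocyte cannot be told apart in whole tissue.

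The genes around the pathway gave no call either. Of 72 genes in 6 lists, 71 were tested and limma called none. At an unadjusted limma p under 0.05, 6 of the 71 were lower and 5 higher in KO, beside 3134 of all 23526 genes tested. In the list of substrate supply (22 genes, median difference -0.03), the 4 genes with the smallest p all had lower means in KO. Tat, the tyrosine aminotransferase that turns on after birth under glucocorticoids and cAMP, had levels of 4.88, 5.39, 4.63 and 4.84 in KO 1 to 4, against 6.13, 6.23, 5.80 and 5.93 in WT 1 to 4. All KO arrays were below all WT arrays. The Tat difference was -1.09 (SE 0.17, 95% interval -1.47 to -0.71, limma adjusted p = 0.0591), and -1.09 with 6 arrays (limma adjusted p = 0.484). Agxt, which moves amino groups from alanine to glyoxylate, differed by -0.61 (SE 0.17), the mitochondrial dicarboxylate carrier Slc25a10 by -0.31 (SE 0.10) and the serine dehydratase Sds by -0.72 (SE 0.28), with limma adjusted p of 0.20, 0.26 and 0.32. Agxt and Slc25a10 separated the groups and Sds did not.

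The 7 enzymes of the reversible steps, which serve both glycolysis and gluconeogenesis, had a median difference of 0.13, and 6 had higher means in KO. Pgk1 differed by 0.27, Tpi1 by 0.29, Pgam1 by 0.29 and Gpi1 by 0.13 (limma adjusted p from 0.367 to 0.512). None of the 7 separated the groups, and WT 1 was the lowest array for each of these 4. In the list of glucose output the export carrier Slc2a2 differed by 0.15, the ubiquitous phosphatase G6pc3 by -0.11 and the muscle isoform Fbp2, a dim probe, by 0.57. Of the 8 enzymes that oppose glucose production (median 0.10), Gckr, which holds glucokinase in the nucleus, differed by -0.46, the pyruvate kinase Pklr by 0.26, and the kinases of pyruvate dehydrogenase Pdk2 and Pdk4 by -0.25 and 0.19.

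Among 22 regulators (median 0.03), Cebpa, a factor needed for gluconeogenic gene expression at birth, had the smallest p and lay wholly above WT. Its levels were 3.35, 3.24, 3.15 and 3.22 in KO, against 2.64, 2.92, 3.01 and 2.97 in WT, and the difference of 0.35 (SE 0.10) did not pass (limma adjusted p = 0.187). Nr0b2, a nuclear receptor that represses gluconeogenic genes, differed by -1.33 (SE 0.38, limma adjusted p = 0.203) with overlapping groups. Its probe was dim, at -5.88 to -4.50 in KO and -4.61 to -2.93 in WT. Creb1 and its coactivator Crtc2 differed by 0.16 and -0.15. Of 12 cAMP targets, 11 were tested, with a median of 0.02, and those with the smallest p after Tat were Fos at 1.19, Cps1 at -0.26 and Nr4a1 at 0.69. Fos stood at 1.25 and 0.84 in KO 3 and KO 4, against -0.36 and -0.74 in KO 1 and KO 2, and Nr4a1 at 2.75 and 2.31 against 1.06 and 0.71. The same 2 arrays, KO 3 and KO 4, were high in these genes and low in Pck1 and Gpt, and what part this has in the Pck1 difference was not tested.

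**Figure D4:**
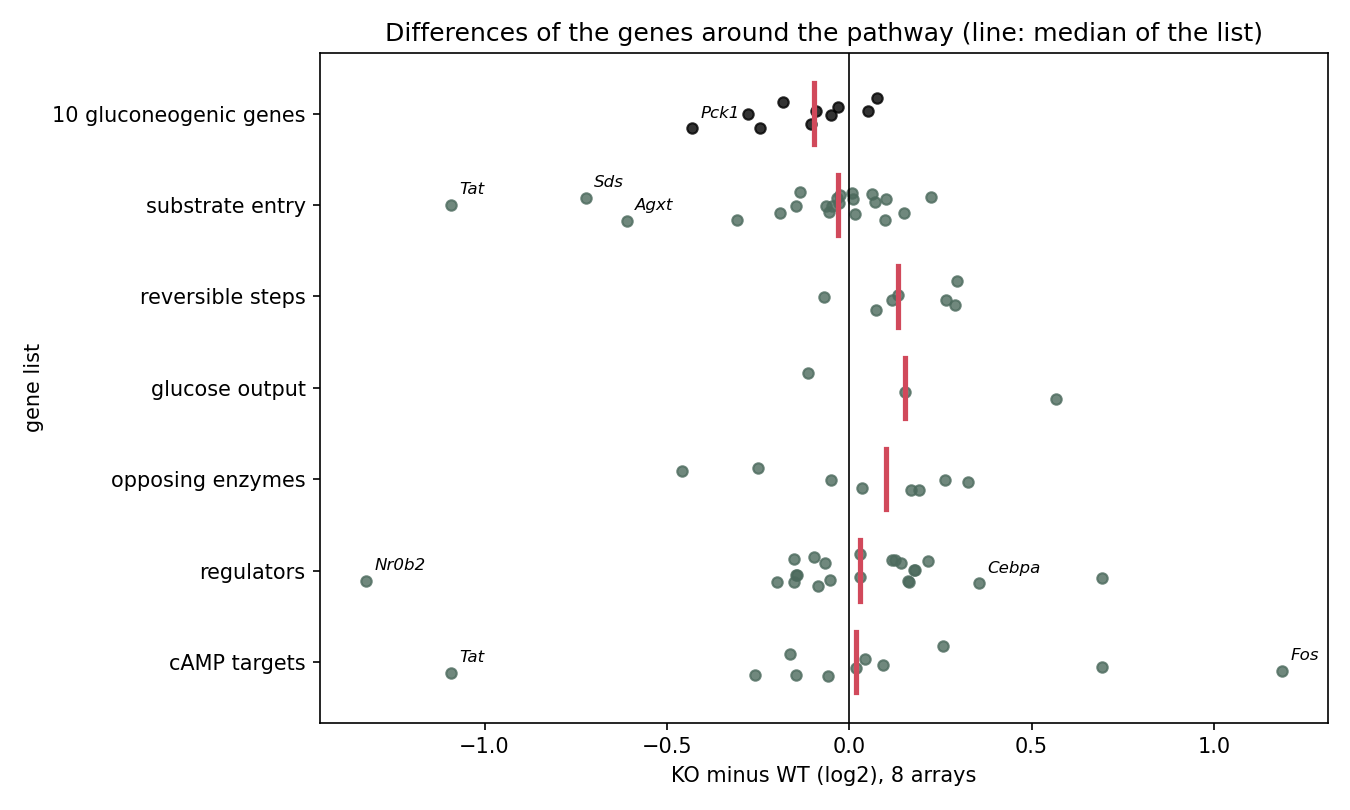
Difference KO minus WT (log2, 8 arrays) of each tested gene in the 10 gluconeogenic genes and in 6 lists around the pathway, with a line at the median of each list. No gene shown was called, and the points farthest from 0 are Nr0b2 (a dim probe) and Tat below it and Fos above it.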

How the data were processed

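RNA of 8 liver samples, 4 KO and 4 WT, was labelled with Cy3 and hybridised to 1 Agilent array each, per the labels' protocols. Scanner files were deposited by the authors. They hold each spot's intensity on a linear scale, and probe positions on mm9, per the file headers. Agilent Feature Extraction 10.10 made them, as the submitters' processing notes say. The processed signal is background-subtracted and detrended within the array. A value table deposited beside them gives log2 values of 27084 probes. Each column follows that array's log2 median signal (r of at least 0.99995), and all 8 columns share 1 maximum. How it was normalized is not given in the sources used here.

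Processed signals were put on the log2 scale, and the 75th percentile of the non-control probes was subtracted within each array. Control and outlier-flagged spots were left out, spots of 1 probe were averaged, and no spot was saturated. Probes well above background on at least 4 of 8 arrays were kept, and each gene was represented by its brightest kept probe. Each array had 58.6% to 66.2% of its spots well above background, and the number of arrays limits the precision. Names were updated through RefSeq accessions for 27235 of 55681 probes and synonyms for 565 (GRCm38.p6, names only). KO and WT were compared with limma 3.58.1 in R 4.3.3 (lmFit, eBayes, two-sided, no covariates), adjusted over all genes at 0.05, and tested on simulated data. Named genes were the members, from each list the 4 smallest p-values at most, the 3 closest profiles of Pck1, G6pc and Ppargc1a, and Mirg and Alb as checks. Xist, Ddx3y and single genes of the marker lists were named after their values were seen. The members and lists were chosen with earlier results of these data known. Alternatives were the normalization, background correction, filter, probe rule, variance model, value table, a block by replicate number, a covariate (Ddx3y or Xist), and leaving out arrays. Fits without both replicates numbered 4 and without WT 1 or KO 3 were added after seeing the data. A marker of the kidney list, and the sum that holds it, is not reported here.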

Additional observations from a re-analysis of the deposited data

Results flagged for a closer look

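Each of the 10 genes was checked for a single distant array in KO and in WT, 20 checks in all. There were 2 such arrays, where about 1 in 20 is found by chance. Ppargc1a stood at 3.16 in WT 1, against 3.84 to 3.90 in the other WT arrays. Gpt2 stood at 3.26 in KO 2, against 2.94 to 2.99 in the other KO arrays.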

How the results depend on the processing

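Of the members only Pck1 was called under any alternative, with normexp and quantile normalization together (1 member called lower, -0.49). Its difference ran from -0.71 to -0.26 over all settings. The differences of Gpt, Gpt2, Pcx, Fbp1, Slc37a4 and Foxo1 kept their sign in every setting. Pck2, G6pc and Ppargc1a, none of which was called, did not, and the cause was not tested. Leaving out 1 array gave -0.10 to 0.029 for Pck2, -0.12 to 0.13 for G6pc and -0.23 to 0.018 for Ppargc1a. Without both replicates numbered 4 Pck2 was 0.013 and Ppargc1a 0.032, without KO 3 and KO 4 they were 0.066 and 0.10, without WT 3 and WT 4 they were 0.049 and 0.12, and without both replicates numbered 4 and KO 3 they were 0.10 and 0.15. G6pc was -0.00098 with normexp and quantile normalization, -0.019 with Ddx3y and -0.15 with Xist as a covariate, and -0.12 without both replicates numbered 4 and WT 1. Of the genes around the pathway, Tat was the 1 called lower, with quantile normalization, either normexp setting, the filter on all 8 arrays, trend and robust eBayes, the value table, and without KO 2 (0 to 1 when leaving out 1 array).

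Over all genes, 42 were called lower and 9 higher. Those counts were 66 and 14 with quantile normalization, 127 and 24 with normexp and quantile, 121 and 14 with normexp and the 75th percentile, 19 and 0 without the filter, 119 and 30 with trend and robust eBayes, 120 and 21 in the value table, 78 and 13 with Ddx3y, and 15 and 3 with Xist. Leaving out 1 array gave 14 to 66 and 0 to 24. Without both replicates numbered 4 they were 6 and 0, without KO 3 and KO 4 9 and 3, without WT 3 and WT 4 11 and 2, without both replicates numbered 4 and WT 1 0 and 0, and without both replicates numbered 4 and KO 3 4 and 3. The replicate numbers did not pair the arrays: deviations of same-numbered arrays correlated at -0.11 to 0.07, and 2 of 8 arrays correlated best with their own number. With the replicate block 17 were lower and 2 higher, and no member was called (Pck1 limma adjusted p = 0.280).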
